A study of Drosophila melanogaster with 6 samples.

Results

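Genes of neurons and of muscle were followed in midgut progenitor cells, a cell type that makes neither neurons nor muscle. The set holds 38 of the 13946 protein-coding genes placed on a chromosome, 20 neuronal and 18 contractile, and was listed by gene function. A gene end was counted as open in a sample when a peak lay within 500 bp of either end of the gene. A locus, meaning the gene and 2 kb on either side, was counted as open when it overlapped any peak. Both ends were used because the gene table gives no strand, so an open end can be the start or the finish of the gene.

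The assay was ATAC-seq, where Tn5 transposase puts adapters into open DNA, run on Drosophila melanogaster intestinal stem cells and enteroblasts (ISC/EB), the daughters that leave the stem cell state. The 3 controls carried esgts and UAS-GFP. The 3 H1 RNAi samples carried the same transgenes together with UAS H1 RNAi 1, which targets the linker histone H1. Flies of both groups were females 3 days old, kept for 2 days at 18 °C and then for 4 days at 29 °C on poor food. Each replicate (A, B and C) was a pool of 70 guts from which 50000 to 100000 GFP-positive cells were sorted. The escargot driver is active in stem cells and in enteroblasts alike, so the 2 cell types are mixed in every sample, and all knock-down samples carry a single RNAi transgene. The extent of the knock-down was not measured in these files. The comparison asks where chromatin opens or closes in progenitors with H1 RNAi.

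Linker histone H1 binds the nucleosome and the DNA that enters and leaves it, and is associated with compact chromatin. In neurons, SNARE proteins such as synaptobrevin, syntaxin and SNAP-25 fuse synaptic vesicles with the membrane at the active zone. In muscle, myosin filaments pull on actin filaments, and the troponin and tropomyosin complex on actin sets when they may do so. The groups are named here for neurons and muscle, and their expression in gut epithelium was not measured. Some members also have forms used in many cells.

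Each deposited list comes from 1 sample. The control lists held 6142 to 10872 peaks covering 2.75 to 6.92 Mb, and the H1 RNAi lists held 6564 to 9827 peaks covering 3.04 to 3.91 Mb. Control A had the shortest list and control B the longest. Read totals are not part of the lists, so the depth of each library is unknown, and a gene with no peak is one with no peak called at that unknown depth. The label of the cells was compared with marker genes: of 14 progenitor markers, 90.5% ± 8.25 (SD, n = 3) had an open gene end in controls and 81.0% ± 10.9 under H1 RNAi. Markers of other cells were open less widely, with control and H1 RNAi means of 24.4% and 17.8% for 15 enteroendocrine genes, 47.6% and 42.9% for 14 enterocyte genes, and 44.4% and 40.7% for 9 visceral muscle genes. Of 6 genes of neurons and glia, a list that holds elav and brp as well, 72.2% had an open end in both groups. Means for 6 hemocyte genes were 16.7% and 0%, for 4 fat body genes 8.33% and 0%, and for 4 tracheal genes 0% and 8.33%. All protein-coding genes stood at 42.7% ± 12.5 in controls and 37.2% ± 8.03 under H1 RNAi. The enterocyte, visceral muscle, and neuron and glia means were above these values. The enteroendocrine, hemocyte, fat body and tracheal means were below them.

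Most neuronal and contractile genes had closed ends in both groups. Of the 38 genes, 5, 10 and 8 had an open gene end in controls A, B and C, and 5, 10 and 8 in H1 RNAi replicates A, B and C. The counts were the same letter for letter, and in both groups A was lowest and B highest. List length had the same order, with 6142, 10872 and 8602 peaks in controls A, B and C and 6564, 9827 and 7261 under H1 RNAi. The open genes were not all the same: between the A samples, Gad1 was open in the control alone and wupA under H1 RNAi alone. The mean was 20.2% ± 6.62 of the genes (SD, n = 3) in controls and 20.2% ± 6.62 under H1 RNAi, beside 42.7% ± 12.5 and 37.2% ± 8.03 of all protein-coding genes. In these sorted pools, a peak carried by a few cells of another type cannot be told apart from a weak peak in every cell. The markers of visceral muscle and of neurons and glia given above overlap the 38 genes in Mhc, Mef2, elav and brp, and the part such cells have in these counts was not tested.

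The neuronal genes had 3, 4 and 3 open ends of 20 in the controls and 2, 5 and 4 in the H1 RNAi samples. The contractile genes had 2, 6 and 5 of 18 in the controls and 3, 5 and 4 in the H1 RNAi samples. In both lists the ranges of the groups overlapped. As shares, the neuronal genes stood at 16.7% ± 2.89 in controls and 18.3% ± 7.64 under H1 RNAi, and the contractile genes at 24.1% ± 11.6 and 22.2% ± 5.56.

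**Figure D1:**
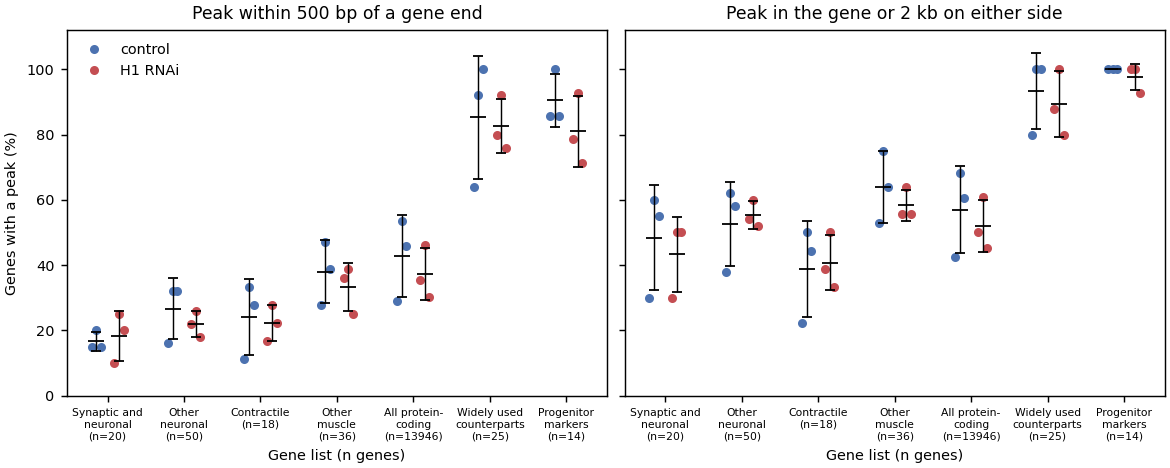
Percent of each gene list with a peak within 500 bp of a gene end (one panel) or in the gene and 2 kb around it (the other). Points are samples, control and H1 RNAi in separate colours, and bars give the mean and SD of 3 samples. Neuronal and contractile genes lie below all protein-coding genes at gene ends in the group means, while progenitor markers and the general-use counterparts lie near the top.

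Only 4 of the 38 genes (10.5%) had an open end in all 6 samples: elav, Syx1A, Mef2 and how. Among all protein-coding genes 3115, or 22.3%, did. At the other extreme, 26 of the 38 (68.4%) had no end peak in any sample, against 6024 (43.2%) of all genes. The remaining 8 were open in some samples: wupA in 5, cac and Gad1 in 4, bt and Tm1 in 3, and brp, Mhc and Act57B in 1 each.

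No member had an end peak in all samples of one group and in none of the other. Over all genes, 36 did, a background of 0.258%, of which 31 (0.222%) were open in controls alone and 5 (0.0359%) with H1 RNAi alone. By exact two-sided permutation of the 6 samples, whose smallest possible p is 0.1 with 3 against 3, no gene was under 0.05, and every Benjamini-Hochberg adjusted p was 1. The number of samples with an open end differed by at most 1 between the groups at every member. Of the members, 26 had no end peak in any sample and so could not differ. The share of all genes that differ by 2 samples or more was not counted, so this has no background beside it.

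**Figure D2:**
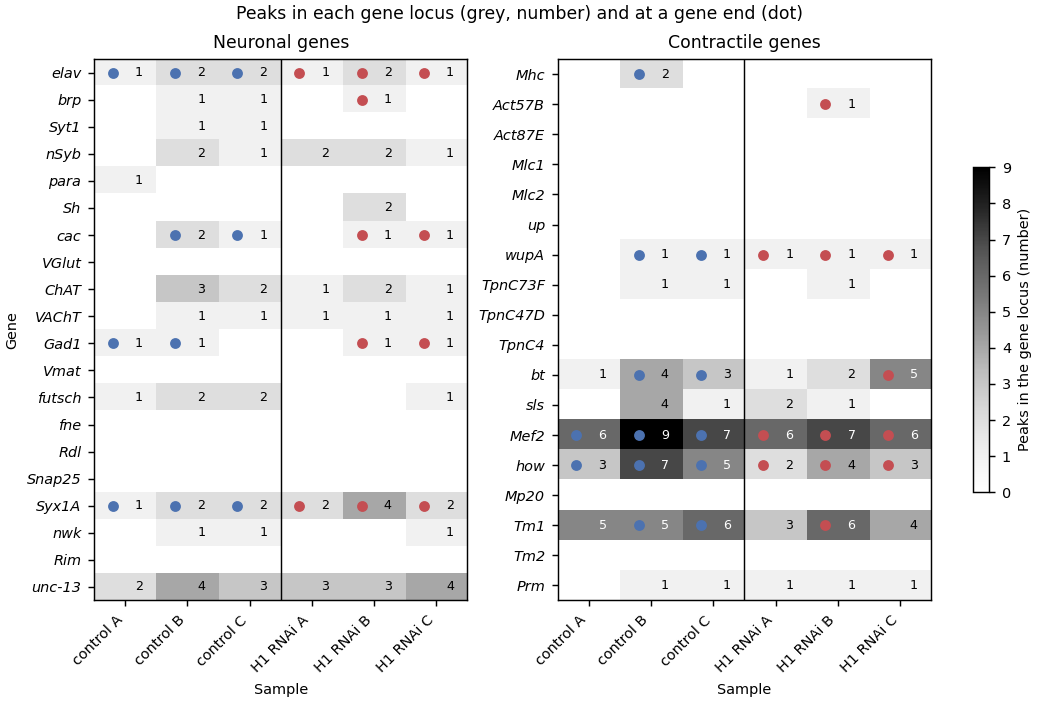
Grid of the 38 genes (rows, neuronal and then contractile) by the 6 samples (columns). The number and grey shade give the peaks in the locus, and a dot marks a peak within 500 bp of a gene end (blue in controls, red in H1 RNAi). A few rows, elav, Syx1A, unc-13, bt, Mef2, how and Tm1, are filled in all 6 columns, and 14 rows are empty.

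The neuronal gene elav, which encodes the RNA-binding protein used as the standard marker of postmitotic neurons, had the highest-ranked peak at a gene end among the members (chromosome X, 509235 to 523226 in dm6). Its locus held 1, 2 and 2 peaks in controls A, B and C and 1, 2 and 1 in H1 RNAi replicates A, B and C. A region near its higher-coordinate end (521910 to 523815 over all samples) was called in all 6. Ranked within its own list by the authors' −log10 q, the strongest peak there stood at percentile 97.5, 99.0 and 97.7 in controls and 97.3, 97.1 and 97.6 under H1 RNAi. All 6 are near the top of their lists, and the groups overlap. The summits of these strongest peaks lay inside the gene, at positions -674 to -565 bp counted from that end, so the peak enters the 500 bp window with its edge and not its summit. Counted by summit, the end was open in 1 of 6 samples, H1 RNAi B, where a second peak has its summit 106 bp past the end. An end of the noncoding gene lncRNA:enrr, its start or its finish, lies within 500 bp of the region 521910 to 523815. A weak second region of controls B and C, at percentiles 16.0 and 2.32, lay at an end of the coding gene arg.

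Among the genes of vesicle fusion, Syx1A stood apart from its partners. Syntaxin 1A is the SNARE of the presynaptic membrane (chromosome 3R, 24101600 to 24105763). Its locus held 1, 2 and 2 peaks in controls and 2, 4 and 2 under H1 RNAi, groups that overlap. The count of 4 in H1 RNAi B includes several peaks called inside the end region. Once overlapping peaks are merged the locus has 2 regions, both called in all 6 samples. The end region (24104843 to 24106492) reached percentiles 32.1, 78.0 and 65.0 in controls and 49.4, 46.6 and 37.8 under H1 RNAi, in the middle of the lists rather than at the top. By contrast nSyb, the synaptobrevin of synaptic vesicles, had no end peak in any sample. Its locus held 0, 2 and 1 peaks in controls and 2, 2 and 1 under H1 RNAi, all in regions of the flanks at ends of other coding genes, CG13928 on one side and Bgb and Mettl2 on the other. Snap25, the remaining SNARE, had no peak in its locus in any sample.

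The gene unc-13 was open inside and beside the gene, and not at its ends. At this locus, which encodes a priming factor (chromosome 4, 867824 to 912331), the locus held 2, 4 and 3 peaks in controls and 3, 3 and 4 under H1 RNAi, with overlapping groups. No peak lay within 500 bp of its ends. A region in the flank, at the end of the neighbouring gene Gyf, and a region inside the gene (904436 to 905649) were each called in all 6 samples. The internal one stood at percentiles 36.1, 83.1 and 70.0 in controls and 42.2, 50.7 and 4.81 under H1 RNAi.

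No other presynaptic gene had an end peak in more than 1 sample, apart from cac and Gad1 below. brp, which encodes the active zone scaffold Bruchpilot, had an end peak in H1 RNAi B alone, at percentile 1.82 and shared with the end of CG1888. Its locus held 0, 1 and 1 peaks in controls and 0, 1 and 0 under H1 RNAi. A region at the 2 kb edge of the brp locus (9543489 to 9544561 on chromosome 2R) was called in all 6 samples, at percentiles 55.6 to 76.5. With a 5000 bp flank the brp locus was open in 6 of 6 samples. Syt1, the calcium sensor of release, had 0, 1 and 1 locus peaks in controls and none under H1 RNAi. The peak of control B belongs to a flank region (2769770 to 2770438 on chromosome 2L) at the ends of CG15399, HINT1 and colt, which was also called in control C and H1 RNAi A, there past the 2 kb edge of the locus. With a 5000 bp flank the Syt1 locus was open in 6 of 6 samples, and by summit in 1. Rim, a scaffold of the active zone, and Vmat and VGlut, which load monoamines and glutamate into vesicles, had no peak at all.

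The cholinergic genes ChAT, the enzyme that makes acetylcholine, and VAChT, its vesicular transporter, share one locus (chromosome 3R, from 18705501). ChAT held 0, 3 and 2 peaks in controls and 1, 2 and 1 under H1 RNAi. VAChT, which lies within the ChAT span, held 0, 1 and 1 and then 1, 1 and 1. The peak counted for VAChT is the same region (18711011 to 18711672) as the first of ChAT, called in 2 controls and 3 H1 RNAi samples, so these genes are not separate observations. Gad1, the enzyme that makes GABA, had an end peak in controls A and B and in H1 RNAi replicates B and C, at a place shared with the end of Faa. The GABA receptor gene Rdl had none, and its neighbour nwk, whose product shapes synaptic membranes and which lies 144 bp away, had 0, 1 and 1 locus peaks in controls and 0, 0 and 1 under H1 RNAi, at an end of Use1.

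The ion channel genes cac, para and Sh are long. Called peaks covered at most 1.06%, 0.213% and 0.18% of these loci in any sample, and no such share was taken over all genes. The calcium channel gene cac had an end peak in controls B and C and in H1 RNAi replicates B and C, shared with the end of gd. The sodium channel gene para held a single peak, in control A. The potassium channel gene Sh held 2 peaks, both in H1 RNAi B and both at or under percentile 1.10 of that list. The peak of para stood at percentile 11.8, so all 3 of these single-sample peaks rank low in their lists.

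The remaining neuronal genes were futsch, which encodes a microtubule-associated protein, and fne, a relative of elav. futsch had no end peak, and its locus held 1, 2 and 2 peaks in controls and 0, 0 and 1 under H1 RNAi. The groups meet at 1 peak, and the mean was 1.67 ± 0.577 in controls and 0.333 ± 0.577 under H1 RNAi (mean ± SD of 3 samples; exact permutation, two-sided, p = 0.2, adjusted p = 1). Counted as open loci, futsch was open in 3 controls and 1 H1 RNAi sample and Syt1 in 2 and 0. These were the only members with a difference of 2 samples, and that of Syt1 depends on the edge of the locus as given above. The share of all genes with such a difference was not counted. At futsch the groups ceased to overlap without control A or without H1 RNAi C, and at Syt1 without control A. Over all genes, 906 of 13946 did not overlap without control A and 197 without H1 RNAi C. fne had no peak in any sample.

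Among the contractile genes, Mef2, how and Tm1 carried most of the peaks: 14, 21 and 18 of the 15, 34 and 25 in controls and 11, 17 and 13 of the 16, 24 and 20 under H1 RNAi. Mef2 encodes the transcription factor that drives muscle genes (chromosome 2R, 9913496 to 9958858). Its locus held 6, 9 and 7 peaks in controls and 6, 7 and 6 under H1 RNAi, the most of any member in every sample. The groups overlap, with means of 7.33 ± 1.53 and 6.33 ± 0.577 (mean ± SD of 3 samples; exact permutation, two-sided, p = 0.7, adjusted p = 1). These peaks made 9 merged regions, 6 of them called in all 6 samples.

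The strongest peaks of Mef2 lay inside the gene. A region 9064 bp from its nearer end (9949147 to 9950028) stood at percentiles 93.4, 96.2 and 96.8 in controls and 97.7, 97.7 and 94.4 under H1 RNAi. A region 3497 bp from that end (9955111 to 9955717) stood at 88.2, 92.9 and 88.9 in controls and 98.9, 98.5 and 96.8 under H1 RNAi. In the first the ranks of the groups overlap, and in the second every H1 RNAi sample ranks above every control. These are ranks in lists of different length, so they show no change between samples. The share of all regions whose ranks separate in this way is not given here. The end peak was lower, at 28.7, 80.6 and 72.1 in controls and 72.7, 73.4 and 34.3 under H1 RNAi, and is shared with the end of Pdrg1.

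The gene how encodes an RNA-binding protein of muscle and tendon (chromosome 3R, 22042191 to 22079321). Its locus held 3, 7 and 5 peaks in controls and 2, 4 and 3 under H1 RNAi, groups that overlap between 3 and 4 peaks, with means of 5 ± 2 and 3 ± 1 (mean ± SD of 3 samples; exact permutation, two-sided, p = 0.3, adjusted p = 1). Without control A the groups did not overlap, as at 906 of all 13946 genes. The end region (22041601 to 22042883) was at no other coding gene's end and was called in all 6, at percentiles 79.5, 83.5 and 82.4 in controls and 88.2, 89.9 and 82.6 under H1 RNAi. Of its 7 regions, 2 were called in every sample.

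Tropomyosin, the filament protein that covers actin, is encoded by Tm1 and Tm2, which lie 1413 bp apart. Tm1 (chromosome 3R, 15278220 to 15308779) also makes cytoplasmic forms used outside muscle. Its locus held 5, 5 and 6 peaks in controls and 3, 6 and 4 under H1 RNAi, with overlapping groups. Without H1 RNAi B the groups did not overlap, with fewer peaks in the H1 RNAi samples, while among peaks with a fold enrichment of at least 4 the direction was the opposite. Over all 13946 genes, 380 did not overlap without H1 RNAi B and 131 with that fold minimum. Of its 5 regions, 3 were called in all 6 samples and all 3 were inside the gene. The region 8672 bp from its nearer end (15286276 to 15286989) stood at percentiles 31.6, 77.3 and 82.5 in controls and 94.9, 88.2 and 94.2 under H1 RNAi. The end peak, in controls B and C and H1 RNAi B, is shared with the ends of MRG15 and l(3)neo43. Tm2, the muscle form, had no peak in any sample.

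The muscle myosin and actin genes had end peaks in at most 1 sample each. Mhc, the muscle myosin heavy chain, had an end peak in control B alone, at percentile 1.88. Its light chains, Mlc1 and Mlc2, had no peak in any sample. Of the muscle actins, Act57B had an end peak in H1 RNAi B alone, at percentile 1.10, and Act87E had none. Prm, the paramyosin of the thick-filament core, had no end peak but held 0, 1 and 1 locus peaks in controls and 1, 1 and 1 under H1 RNAi, a region inside the gene.

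The troponin genes differed from one another. wupA, which encodes troponin I (chromosome X, 18105568 to 18116922), had an end peak in controls B and C and in all 3 H1 RNAi samples. It stood at percentiles 36.3 and 41.5 in those controls and at 23.5, 34.1 and 25.8 under H1 RNAi, with fold enrichments of 2.96 and 4.24 in the controls and 3.68, 4.46 and 3.23 in the H1 RNAi samples as the authors' peak caller wrote them. Control A, the one sample without it, has the shortest list. The troponin T gene up and the troponin C genes TpnC47D and TpnC4 had no peak, and TpnC73F had one only in a flank shared with Papst2 and Pop5, in controls B and C and H1 RNAi B. Mp20, a calponin-like protein of muscle, had none.

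The giant elastic proteins of the sarcomere are encoded by bt, for projectin, and sls, for the titin-like kettin. bt (chromosome 4, 724400 to 776474) held 1, 4 and 3 locus peaks in controls and 1, 2 and 5 under H1 RNAi, with overlapping groups and an end peak in controls B and C and H1 RNAi C. One of its regions, 776719 to 777999, was called in all 6 samples, with its summits about 772 bp past the end of the gene. An end of lncRNA:CR45200 lies within 500 bp of that region. sls (chromosome 3L, 2039681 to 2115611) held 0, 4 and 1 peaks in controls and 2, 1 and 0 under H1 RNAi, in 6 regions, none of them called in more than 3 samples.

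Counted over the whole locus, 10, 21 and 19 of the 38 genes were open in controls and 13, 19 and 16 under H1 RNAi. The means were 43.9% ± 15.4 and 42.1% ± 7.89 (SD, n = 3), with overlapping groups, beside 57% ± 13.2 and 52% ± 8 of all genes. All 6 samples were open at 7 of the 38 (18.4%; elav, Syx1A, unc-13, bt, Mef2, how and Tm1), against 35.9% of all genes. No sample was open at 14 (36.8%), against 28.8% of all genes. Of the 26 genes with no end peak, these 14 make up the larger part, 6 neuronal and 8 contractile, and the other 12 had a peak in the body or flank in at least 1 sample.

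No member had numbers of locus peaks that failed to overlap between the groups. Over all genes 96 did, a background of 0.688%, with 42 (0.301%) higher and 54 (0.387%) lower in the H1 RNAi samples.

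Peaks in the member loci made 65 regions after overlapping peaks were merged, of 11854 regions in all. Of the 65, 18 (27.7%) were called in all 6 samples, against 36.8% of all regions, and 21 (32.3%) in a single sample, against 22.5%. None was called in all 3 samples of one group and none of the other; the background for all regions was 95, or 0.801%. Control B alone gave 11 of the single-sample regions. By place, 13 regions were at a gene end, 41 inside a gene and 11 in a flank. An end of another coding gene lay within 500 bp of 15 of the 65, among them 7 of the 11 flank regions. Mef2, how and Tm1 together held 21 of the 65 regions and 11 of the 18 called in all 6 samples.

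Neuronal genes are long, so peaks were also counted per length of locus. The median length was 30.3 kb for the neuronal genes and 7.05 kb for the contractile genes, against 2.16 kb for all genes. In the neuronal loci 7, 21 and 16 peaks lay in controls and 9, 18 and 13 under H1 RNAi. Per 100 kb this was 1.56 ± 0.753 in controls and 1.42 ± 0.479 under H1 RNAi (SD, n = 3), beside 7.42 ± 2.06 and 6.83 ± 1.55 in the loci of all genes. In the contractile loci 15, 34 and 25 peaks lay in controls and 16, 24 and 20 under H1 RNAi, or 6.29 ± 2.42 and 5.10 ± 1.02 per 100 kb. In every pair the groups overlap. Without Mef2, how and Tm1, a choice made after their values were seen, the other 35 genes had 1.79 ± 1.08 peaks per 100 kb in controls and 1.62 ± 0.455 under H1 RNAi.

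Shares were also taken within classes of gene length. Of the 13 neuronal genes of 20 kb or more, 38.5% ± 13.3 had an open locus in controls and 28.2% ± 11.8 under H1 RNAi, against 78.1% ± 7.84 and 76.0% ± 3.58 of the 1019 genes of that length. The 6 neuronal genes of 5 to 20 kb stood at 61.1% ± 25.5 and 66.7% ± 16.7, against 74.8% ± 10.6 and 71.6% ± 5.71 of the 2470 genes of that length, with overlapping ranges, and the 1 neuronal gene under 5 kb, Syx1A, was open in every sample. The 6 contractile genes of 20 kb or more stood at 83.3% ± 16.7 and 77.8% ± 9.62 by locus. Their open ends stood at 61.1% ± 25.5 and 44.4% ± 9.62, against 51.9% ± 8.78 and 48.1% ± 5.97 of all genes of that length. For the 4 contractile genes of 5 to 20 kb, open ends stood at 16.7% ± 14.4 and 25% ± 0. Of all genes of that length, 58.9% ± 11.9 and 53.9% ± 7.59 had an open end. Of the 8 contractile genes under 5 kb, none had an open end in any control and 1, Act57B, had one in a single H1 RNAi sample, against 38% ± 13 and 32.2% ± 8.33 of the 10457 short genes.

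**Figure D3:**
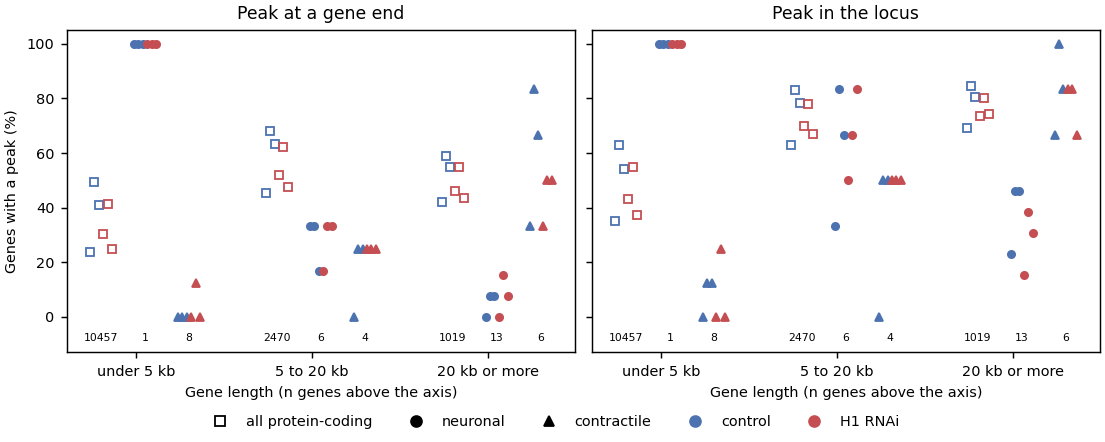
Percent of genes with a peak in the locus or at a gene end, by class of gene length, for all protein-coding genes and for the neuronal and contractile genes. Points are samples in 2 colours for the groups, and the number of genes in each class is printed. Among genes of 20 kb or more, the neuronal genes lie below all genes in all 6 samples.

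The relatives of these genes that serve cells in general were open in both groups. Of 25 such genes, 85.3% ± 18.9 had an open end in controls and 82.7% ± 8.33 under H1 RNAi. Pairs were picked here by relatedness, with their values already seen. The cytoplasmic actins Act5C and Act42A were open at an end in 6 of 6 samples, where the muscle actins were open in 1 and 0. The non-muscle myosin chains zip, sqh and Mlc-c were open in 5, 6 and 6 samples, where Mhc, Mlc1 and Mlc2 were open in 1, 0 and 0. The general synaptobrevin Syb was open in 6 samples and nSyb in 0. The syntaxins did not differ in this way. Syx1A was open in 6 samples, as were the general Syx4, Syx17 and Syx18, while Syx5, Syx7 and Syx16 were open in 4, 4 and 5. Snap24, the general relative of Snap25, was open in controls B and C and in no H1 RNAi sample.

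Further genes of the same tissues were counted, and their shares of open ends were nearer to those of all genes than the shares of the 20 neuronal and 18 contractile genes were. Of 50 other neuronal genes, 26.7% ± 9.24 had an open end in controls and 22% ± 4 under H1 RNAi, 8 were open in all 6 samples and 32 in none. Among the 8 were Appl, Ca-beta, Csp and EndoA. Of 36 other muscle genes, 38% ± 9.76 had an open end in controls and 33.3% ± 7.35 under H1 RNAi, 6 were open in all 6 samples and 18 in none. Among the 6 were Actn, the actin cross-linker alpha-actinin, mys, an integrin subunit that is also used in epithelia, tmod, which caps actin filaments, and Unc-89. Counted over the locus, 52.7% ± 12.9 and 55.3% ± 4.16 of the other neuronal genes and 63.9% ± 11.1 and 58.3% ± 4.81 of the other muscle genes were open in controls and H1 RNAi samples, beside the 57% and 52% of all genes.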

How the data were processed

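The material was ATAC-seq peak lists of 3 control and 3 H1 RNAi samples, assigned to groups by sample title. The submitters' processing notes name Trim Galore, Bowtie2, Picard, MACS2 and the dm6 build. Order, versions, settings and a correction for the Tn5 offset were not given in the sources used here. Every sample has its own deposited narrowPeak list, so replicates were not pooled at peak calling. The authors' peak caller wrote for each peak its coordinates, an integer score, a fold enrichment (a ratio) and p and q on a −log10 scale. The lowest −log10 q was 2.00 to 2.05 in the deposited lists. These values describe and rank peaks within a list, as a percentile by −log10 q, and no height was compared between samples.

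Gene coordinates came from the NCBI table of Release 6, the assembly of dm6, which gives no strand, so exons, introns and starts were not separated. All 38 members matched by symbol. Of 38 other muscle genes, 36 matched. Peaks overlapping by 1 bp or more were merged into regions. Locus counts are of peaks as called, so 1 region can hold several peaks of a sample, as at elav, Syx1A, unc-13, how and Tm1. Groups were compared gene by gene over all 13946 genes, by exact two-sided permutation with Benjamini-Hochberg adjustment at 0.05. Replicates are separate pools of guts per the labels. Values were given per sample for members with an end peak in at least 5 of 6 samples, a difference of 2 or more samples between groups, or 10 or more locus peaks in a sample, and more briefly for the rest. The other lists name at most 4 genes each, except the general-use relatives, which were picked after their values were seen. The members and lists were chosen with earlier results of these data known. Tried as alternatives were a minimum −log10 q of 10, a minimum fold of 4, lists of 6142 peaks, summits in place of overlap, windows of 1000 bp and 5000 bp or 250 bp and no flank, peaks at no other coding end, a replicate block by letter, and the omission of each sample in turn. The code was tested on simulated data. Python 3.11.15, pandas 2.3.3, numpy 2.4.6, scipy 1.17.1 and matplotlib 3.10.9 were used.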

Additional observations from a re-analysis of the deposited data

How the results depend on the processing

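The difference between groups in members with an open gene end, 0 in the deposited lists, lay between -2.33 (minimum −log10 q of 10) and 1.33 (without H1 RNAi A), and members with no end peak numbered 23 to 30 in place of 26. The members open at an end in every sample, 4 in the deposited lists, were 2 with a minimum −log10 q of 10 and 2 with a minimum fold of 4 (elav and how both times), and 2 when the summit had to lie in the window (Syx1A and Mef2). They were 6 with wider windows (unc-13 and bt added), 5 without control A and 3 for peaks at no other coding end. The cause was not tested, apart from the elav summits described above. Among all genes, the share open at an end in every sample was 22.3% in the deposited lists. That share was 8.57% with the minimum −log10 q, 7.89% with the minimum fold, 15.8% by summit and 26.7% with wider windows. With a minimum −log10 q of 10, cac, wupA and bt were each open in 2 fewer H1 RNAi samples than controls, and bt also with a minimum fold of 4. The share of all genes with such a difference at these minima was not counted. Genes open at an end in one group alone, 36 of all genes, numbered 83 with lists of equal length, 58 by summit, and 51 to 340 when a sample was left out, the highest without control A. Genes with locus peaks that do not overlap, 96, numbered 157 with equal lists and 155 to 906 with a sample left out, the highest without control A. With 2 samples left in a group, fewer have to lie apart. Members among them, 0 in the deposited lists, were 1 with a minimum fold of 4 (Tm1, higher under H1 RNAi) and 0 to 3 with a sample left out: Syt1, futsch and how without control A, Tm1 without H1 RNAi B and futsch without H1 RNAi C, all lower under H1 RNAi. The difference in peaks in member loci, -6, turned to 2.67 with a minimum fold of 4 and to 1.83 without control B. As a replicate block, the same sign in all 3 lettered pairs was required in place of groups that do not overlap: 278 genes and 2 members (futsch and how, lower) met it for locus peaks, and 36 genes at gene ends. Deviations of same-letter samples correlated at 0.22, 0.41 and -0.05, and those of different-letter samples at -0.39 to 0.24. The labels do not say what a letter marks. No pairing was assumed, and a batch shared by letter was not tested. The gene start alone was not run, since the table has no strand. Depth is unknown, so closed genes are genes with no called peak, and 3 against 3 samples allow no p under 0.1.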
